A study of Canis lupus familiaris with 29 samples.

Results

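The mitochondrial ribosomal protein genes are nuclear genes for subunits of the ribosome inside mitochondria, and their messenger RNA was followed here in dog kidney epithelial cells. Members were the genes whose single annotated symbol begins with MRPL or MRPS followed by a digit. The array named 73 such genes, of 15115 named by a single symbol, through 162 of its 42924 probe sets. A probe set is a group of short probes for 1 transcript. Of the 73 genes, 71 had a probe set at log2 signal 5 or more on at least 3 of 29 arrays, and for each gene the probe set of highest mean was used. MRPL54 and MRPS34 did not reach that level, with highest array values of 1.93 and 3.06. MRPS27 lay just inside it, with a mean of 4.97 and 6 arrays at 5 or more, and the other 70 members were at 5 or more on all 29 arrays. The genes MRPS6, MRPS17, MRPS24, MRPL51 and MRPL44 were among those not analysed here.

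All arrays measured total RNA of MDCK type II cells, an established line from dog kidney tubule that grows as a polarised epithelium. Cells were grown on permeable transwell supports, called 2D, or in collagen, called 3D. Each culture had 4 untreated control arrays and 4 arrays treated with HGF, hepatocyte growth factor, which binds the receptor tyrosine kinase MET. Other arrays had HGF with PD-98059, on 4 arrays in 2D and 3 in 3D, or HGF with U0126, on 3 arrays in each culture. PD-98059 and U0126 are small molecules that block MEK, the kinase that activates ERK in the MAP kinase cascade. All inhibitor groups carried HGF as well, and no group had an inhibitor alone. Treatment doses and times were not given in the sources. All groups are 1 cell line, the labels do not say whether arrays of a group came from separate cultures, and p-values therefore measure no more than array-to-array spread, part of which may be technical.

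Mitochondria keep a small genome that encodes core subunits of the respiratory chain, and these few proteins are made on the mitochondrial ribosome. All proteins of that ribosome are encoded in the nucleus, made in the cytosol and imported, and they assemble with ribosomal RNA of the mitochondrial genome into a small subunit, which reads the messenger RNA, and a large subunit, which joins amino acids. Some of the proteins have counterparts in bacteria and others are found in mitochondrial ribosomes alone. Large-subunit members were grouped by number, with MRPL1 to MRPL36 as shared and MRPL37 and higher, MRPS30 and MRPS18A as mitochondrial alone. Small-subunit members were grouped by a fixed list. Grouping by symbol can misplace single genes, so counts by kind hold only for the groups as drawn. Tubule cells of the kidney depend on respiration for the energy of solute transport, which is why the set is of interest in this tissue.

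Signals are the deposited log2 values, on which a difference of 1 is a 2-fold change, and differences were tested with limma over all 16571 probe sets that passed the filter, with Benjamini-Hochberg adjustment and a threshold of 0.05. A probe set's signal depends on its probes, so levels are compared between arrays for the same gene and never between genes. An RNA-quality index, the mean excess of 3′ over 5′ or middle control probe sets of 3 housekeeping genes, averaged 1.44 in 2D control, 0.838 in 2D HGF, 1.93 in 3D control and 1.68 in 3D HGF, and between 1.31 and 1.65 in the inhibitor groups. The 3D HGF arrays differed most among themselves, with an index from 1.09 to 2.46, and their least similar pair correlated at 0.964 where pairs in the other groups reached 0.987 or more. Their replicates 1 and 4 lay farthest from the group, and the main counts are given without them as well. Of 12 epithelial markers, 8 reached log2 5 on at least 3 arrays, among them EPCAM between 13.67 and 14.80, while CDH1, which encodes E-cadherin, reached at most 3.84. None of 8 fibroblast and none of 5 endothelial markers reached that level, and of 6 leukocyte markers only CD68 did, with up to 6.79 in 2D HGF. Changes in the share of a cell state and in RNA per cell cannot be told apart in such bulk samples.

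Members were highest in collagen cultures treated with HGF, alone or with PD-98059, and lowest in untreated collagen. Each member was centred on the mean of its own 8 group means, and the median over the 71 members was taken on each array. In 3D control the 4 array medians were -0.18, -0.21, -0.14 and -0.22, and in 3D HGF they were 0.23, 0.32, 0.29 and 0.07. With HGF and PD-98059 in 3D they were 0.21, 0.18 and 0.27, and with HGF and U0126 they were 0.01, -0.12 and 0.05. All arrays of the 3 HGF-treated 3D groups thus lay above every 3D control array, those with U0126 nearest to them. In 2D the control arrays lay between -0.17 and -0.07 and the HGF arrays between -0.12 and -0.02, so these groups overlapped. The 2D PD-98059 arrays ran from -0.15 to 0.20 and the 2D U0126 arrays from -0.10 to -0.01.

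**Figure D1:**
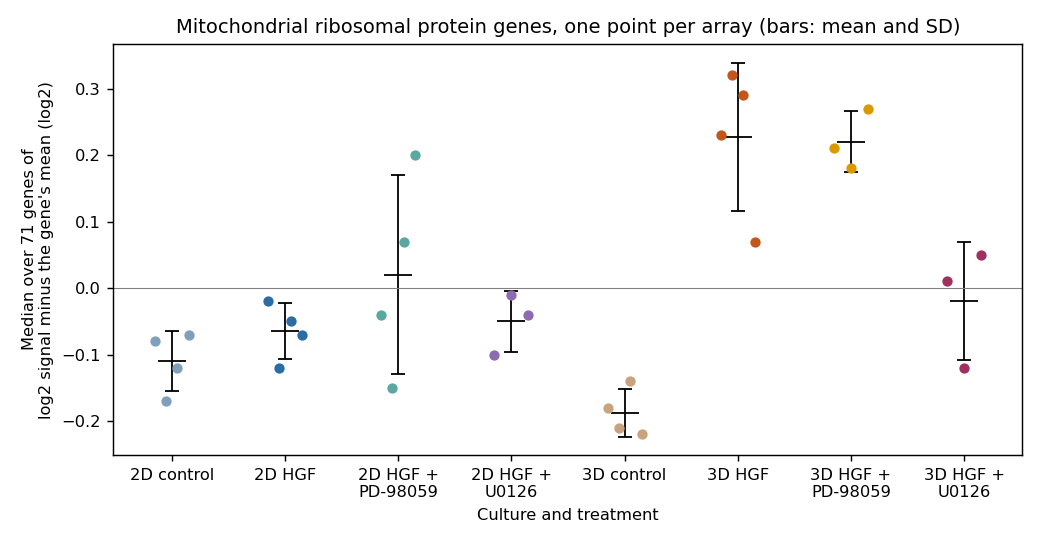
Median over the 71 genes of log2 signal minus the mean of each gene's 8 group means (vertical axis, log2), by culture and treatment. Points are arrays, bars the group mean and SD. The 3D HGF arrays lie between 0.07 and 0.32 and the 3D control arrays between -0.22 and -0.14.

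By group means, 27 members had their highest level in 3D HGF and 16 in 3D HGF with PD-98059. Another 11 were highest in 2D HGF and 11 in 2D HGF with PD-98059. The lowest level fell in 3D control for 29 members, in 2D HGF for 12 and in 2D control for 10. Counts of this kind were not taken over all genes tested, so no background stands beside them. The widest range of group means was 2.20 for MRPS10, followed by 1.69 for MRPL17, 1.51 for MRPS26, 1.34 for MRPS22 and 1.31 for MRPL36. These genes did not share 1 pattern. MRPS10 and MRPS22 were highest in 3D HGF and lowest in 3D control, and MRPL17 was highest in 2D HGF and lowest in 3D control. MRPS26 was highest in 3D HGF with PD-98059 and lowest in 2D HGF, and MRPL36 was highest in 2D HGF with PD-98059 and lowest in 3D HGF. The narrowest ranges were 0.13 for MRPS27, 0.27 for MRPL38 and 0.29 for MRPS18B. MRPS27, an RNA-binding protein of the small subunit, was near the filter level throughout, with values from 4.88 to 5.19.

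**Figure D2:**
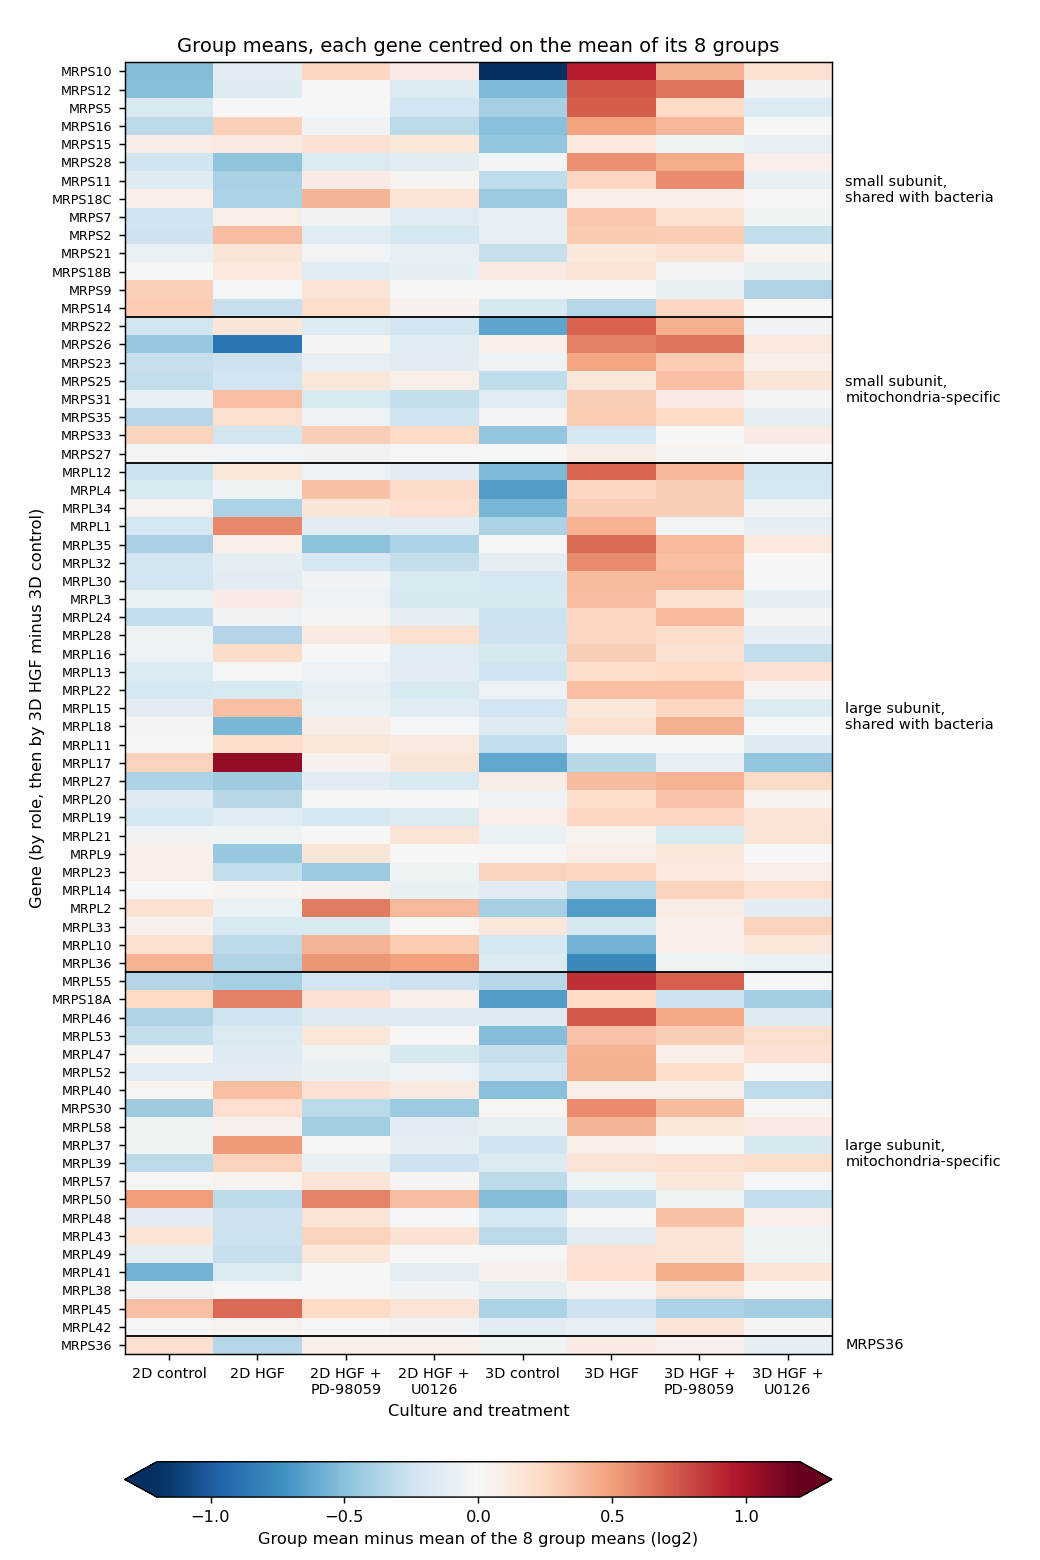
Group means of the 71 genes (rows) in the 8 groups (columns), each gene centred on the mean of its 8 groups (colour, log2). Genes are ordered by the role assigned from their symbol and then by their HGF difference in 3D. The 3D HGF column is the highest for 27 genes and the 3D control column the lowest for 29.

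The comparison of HGF with control in collagen asks how these genes respond when MDCK cells in 3D receive the growth factor. Of 71 members, 46 rose and 3 fell, which is 64.8% and 4.23% of them, and 22 did not pass. Over all probe sets tested, 29.4% rose and 32.6% fell in the same comparison, and with 1 probe set per gene 30.3% rose. The median difference over the members was 0.42, or 1.34-fold, against 0.00 over all probe sets. For 42 of the 46, or 91.3%, all 4 HGF arrays lay above all 4 control arrays, which held for 76.9% of all probe sets that rose. Without 3D HGF replicates 1 and 4 the counts were 52 higher and 1 lower, and 45 of the 46 were among them.

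Of the 14 small-subunit members grouped as shared with bacteria, 11 rose and none fell, with a median of 0.54. The largest change was in MRPS10, a protein of the head of the small subunit. MRPS10 read 6.10, 6.59, 6.21 and 6.26 in 3D control and 7.79, 8.50, 8.65 and 9.02 in 3D HGF. Every HGF array was above every control array, and the difference of 2.20 (SE 0.16, n = 4 and 4) was 4.59-fold, with a limma adjusted p of 8.79e-12. Replicate 1 was the lowest of the HGF arrays and replicate 4 the highest.

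MRPS12, the counterpart of the bacterial protein S12 at the decoding centre, read 10.07, 9.82, 9.82 and 9.90 in 3D control and 11.40, 11.25, 11.11 and 10.99 in 3D HGF. All HGF arrays stood well above all controls, and the difference was 1.28 (SE 0.08, 2.43-fold, adjusted p = 4.83e-13). MRPS5, which lies near the entry of the messenger RNA, read 10.73, 10.50, 10.52 and 10.56 in control and 11.60, 11.71, 11.79 and 11.72 with HGF. That was a 2.19-fold rise, with no overlap between the groups and little spread within either. MRPS16 rose by 0.99, or 1.98-fold. The other 7 that rose were MRPS15, MRPS28, MRPS11, MRPS18C, MRPS7, MRPS2 and MRPS21, by between 0.41 and 0.58, and of these only MRPS11 had overlapping groups. MRPS18B, MRPS9 and MRPS14 did not pass, with differences of 0.04, 0.01 and -0.15, although the other probe sets of MRPS18B rose by 0.35 and 0.41 and passed.

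Of the 8 small-subunit members grouped as found in mitochondria alone, 5 rose and none fell, with a median of 0.44. MRPS22, a core subunit of this kind, read 9.95, 9.84, 10.01 and 9.93 in 3D control and 11.10, 11.39, 11.36 and 11.24 in 3D HGF. It rose 2.53-fold, by 1.34 (SE 0.08), with the lowest adjusted p of the members in this comparison, 5.97e-14. MRPS26 rose by 0.54, MRPS23 by 0.53, MRPS31 by 0.45 and MRPS25 by 0.44. The groups of MRPS25 overlapped, because HGF replicate 4 read 11.38 and control replicate 1 read 11.52. MRPS33, MRPS35 and MRPS27 differed by 0.26, 0.26 and 0.08 and did not pass.

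The 28 large-subunit members grouped by number as shared with bacteria held all 3 falling members, beside 18 that rose. MRPL12, the stalk protein that recruits translation factors, read 10.03, 9.65, 9.73 and 9.78 in 3D control and 11.01, 11.20, 11.14 and 10.82 in 3D HGF. All HGF arrays were higher, and the rise of 1.24 (SE 0.11) was 2.37-fold, with an adjusted p of 3.42e-10. Its partners at the base of the stalk behaved differently: MRPL11 rose by 0.30 (SE 0.08, adjusted p = 0.00205) with overlapping groups, and MRPL10 differed by -0.36 (SE 0.17, adjusted p = 0.0605). MRPL10 read 7.70, 7.60, 7.81 and 7.83 in control and 6.71, 7.49, 7.40 and 7.89 with HGF, so the HGF arrays spread widely and reached above the controls. Without HGF replicate 4 its difference was -0.54 with an adjusted p of 0.00434. MRPL11 lost its call when only the compared groups were fitted (adjusted p = 0.054).

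Of the other large-subunit proteins shared with bacteria, MRPL4 at the exit tunnel rose by 0.93, MRPL34 by 0.84 and MRPL1, the protein of the stalk beside the exit site, by 0.80. MRPL35 rose by 0.70, MRPL32 by 0.69, MRPL30 by 0.58 and MRPL3, which reaches towards the catalytic centre, by 0.56. MRPL24, MRPL28, MRPL16, MRPL13, MRPL22, MRPL15, MRPL18, MRPL27 and MRPL20 rose by between 0.29 and 0.51. MRPL34 showed how uneven the HGF arrays were: it read 7.80, 7.77, 7.69 and 7.74 in control and 7.95, 9.02, 8.76 and 8.63 with HGF. Replicate 1 was close to the controls and the other HGF arrays were far above them.

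MRPL36, a small basic protein of the large subunit, was the 1 member that fell without overlap. It read 12.90, 12.91, 13.01 and 12.90 in 3D control and 12.47, 12.34, 12.37 and 12.11 in 3D HGF, and the difference of -0.61 (SE 0.09, adjusted p = 2.06e-06) was 1.52-fold lower. MRPL33 and MRPL2 fell by 0.33 and 0.27 with adjusted p of 0.0368 and 0.0281, and in both the groups overlapped. Without 3D control replicate 3, without 3D HGF replicate 1, or without HGF replicates 1 and 4 together, the count of falling members was 1 in place of 3. The members of this kind that did not pass were MRPL17, MRPL19, MRPL21, MRPL9, MRPL23, MRPL14 and MRPL10.

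**Figure D3:**
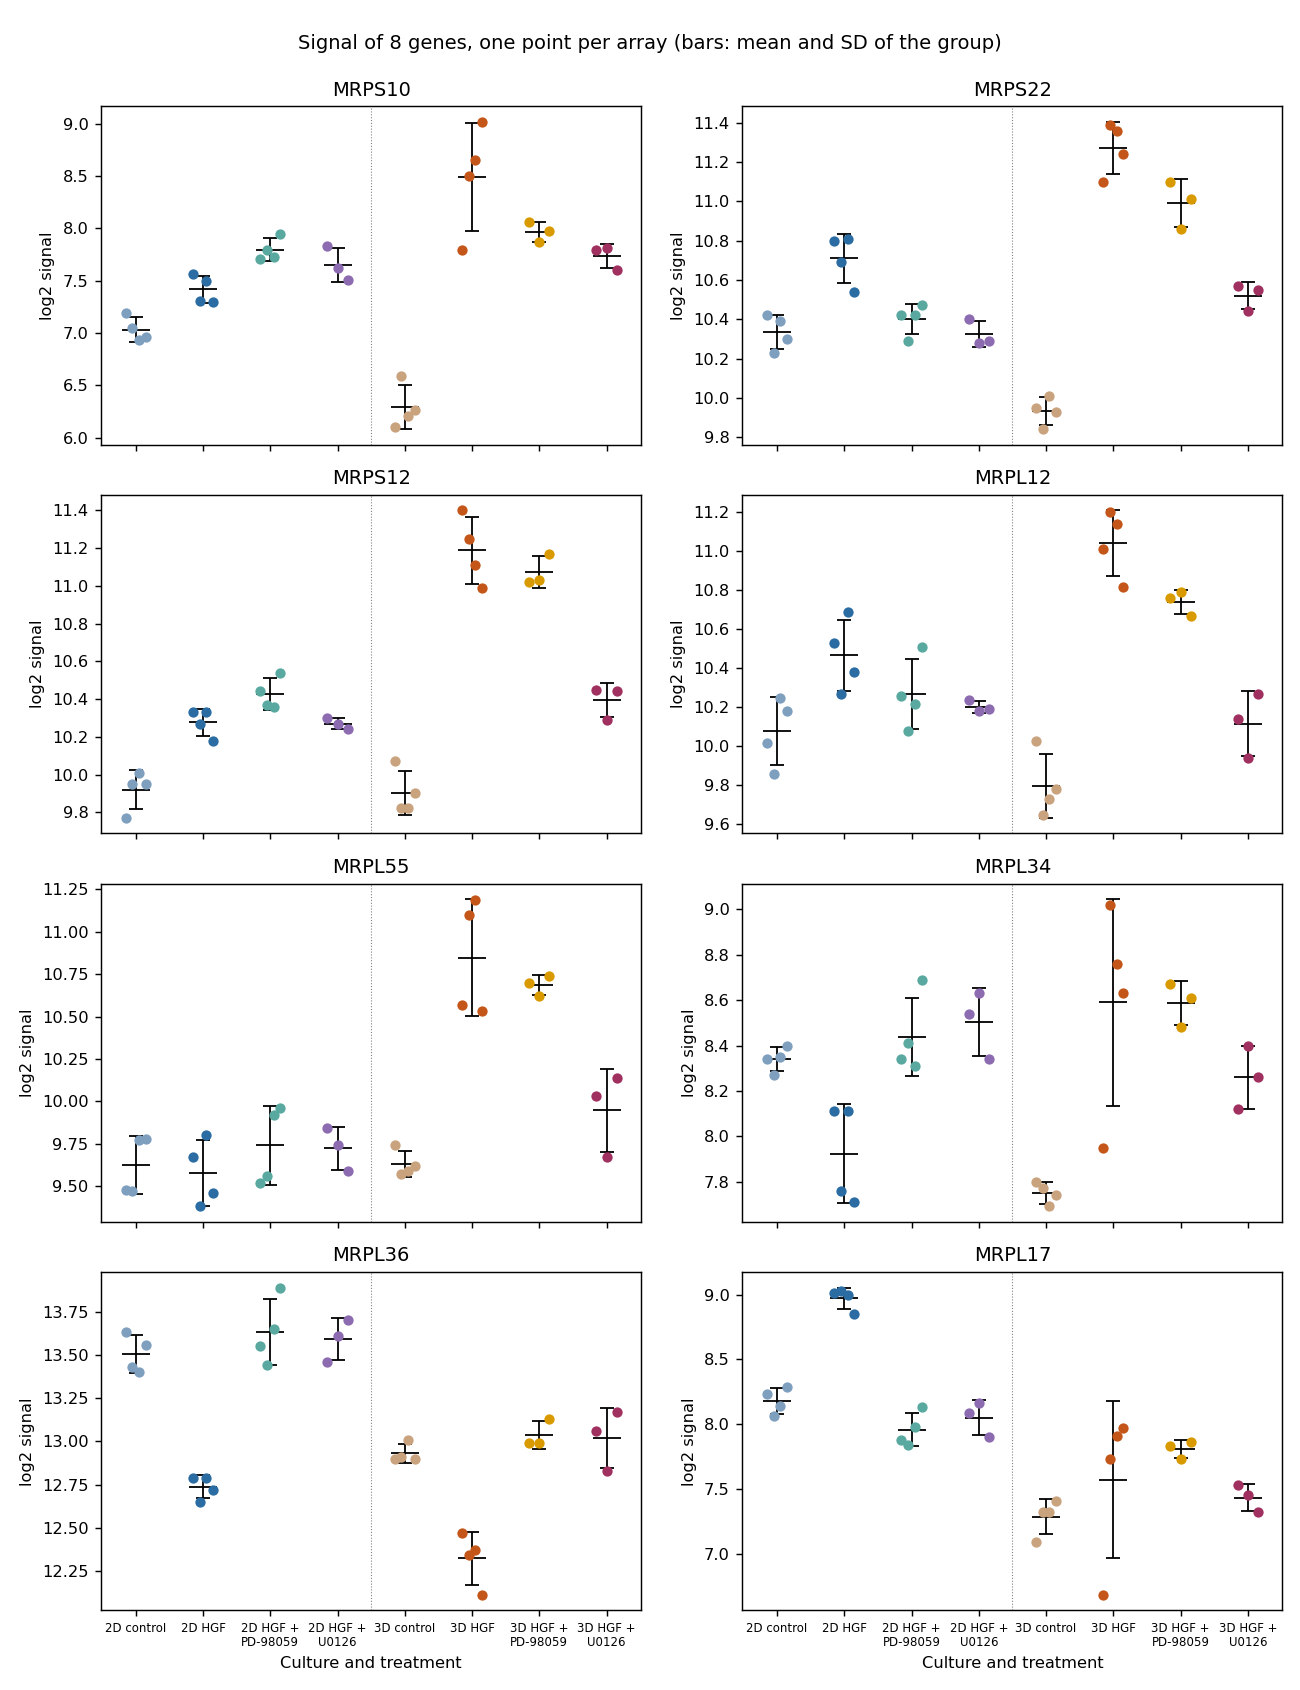
Deposited log2 signal (vertical axis) of MRPS10, MRPS22, MRPS12, MRPL12, MRPL55, MRPL34, MRPL36 and MRPL17 on each array (points) of the 8 groups, with group mean and SD (bars). MRPS10 reaches from 6.10 in 3D control to 9.02 in 3D HGF, whereas MRPL36 is lower in both HGF groups without inhibitor than in their controls.

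The other 20 large-subunit members were those numbered MRPL37 and higher, with MRPS18A and MRPS30. Of these, 12 rose and none fell, with a median of 0.32. MRPL55 read 9.74, 9.57, 9.59 and 9.62 in 3D control and 10.57, 11.10, 11.19 and 10.53 in 3D HGF. The rise of 1.22 (SE 0.14) was 2.32-fold with an adjusted p of 3.77e-08, and the groups were far apart although HGF replicates 1 and 4 were lower than 2 and 3. MRPS18A, which sits in the large subunit despite its name, rose by 0.92, MRPL46 by 0.89 and MRPL53 by 0.87. MRPS30, also placed in the large subunit by structures, rose by 0.54. MRPL47, MRPL52, MRPL40, MRPL58, MRPL39, MRPL37 and MRPL57 rose by between 0.25 and 0.70, with overlap in MRPL39 alone of these 7. MRPL58 is a peptidyl-tRNA hydrolase that has become part of the ribosome.

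The 8 members of that group that did not pass were MRPL38, MRPL41, MRPL42, MRPL43, MRPL45, MRPL48, MRPL49 and MRPL50. For several of them another probe set of the gene did pass. MRPL45, the protein that holds the ribosome against the inner membrane, differed by 0.13 (SE 0.08, adjusted p = 0.159) on the probe set used. Its other probe set rose by 0.94 and passed. The others of MRPL38 rose by 0.52 and 0.79, and 1 other each of MRPL43, MRPL42 and MRPL49 rose by 0.40, 0.24 and 0.30. The answer for these 5 genes thus depends on the probe set. MRPL41 read 8.43, 8.29, 8.12 and 8.34 in control and 7.72, 8.75, 8.76 and 8.55 with HGF. Its replicate 1 lay below the controls and the rest above, and without that array the difference was 0.39 with an adjusted p of 0.00567. MRPS36, which is named as a ribosomal protein but is known as a subunit of the oxoglutarate dehydrogenase complex, differed by 0.15 and did not pass (adjusted p = 0.301).

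By subunit, 16 of 22 small-subunit members rose and none fell, with a median of 0.49, and 30 of 48 large-subunit members rose and 3 fell, with a median of 0.32. Of 54 members with several probe sets above the filter, 38 passed in this comparison, and for all 38 the other probe sets had the same sign. Of the 22 members that did not pass, 16 had other probe sets above the filter, and in 7 of these (MRPL21, MRPL38, MRPL42, MRPL43, MRPL45, MRPL49 and MRPS18B) another one rose. With the mean over a gene's probe sets, 54 members rose, the 46 among them, and 3 fell. The medians on the 3D HGF arrays, each taken against the 3D control mean, were 0.39, 0.51, 0.52 and 0.28, so all 4 arrays pointed the same way. With the RNA-quality index as a covariate the counts were 48 higher and 3 lower.

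HGF in flat culture asks the same of cells on transwells, and the members split. Of 71, 25 rose and 18 fell, or 35.2% and 25.4%, where over all probe sets 26.3% rose and 29.2% fell. These shares are near the background, and the median difference was 0.06, or 1.04-fold. No member changed 2-fold. Of the 25 that rose, 23 had no overlap between the groups, and all 18 that fell had none, near the 90.9% and 89.4% over all probe sets called. The RNA-quality index did not overlap between these groups, at 1.30 to 1.53 in control and 0.798 to 0.902 with HGF, and with it as a covariate 23 members rose and 14 fell. Of the 25 and 18 above, 19 and 12 were among these.

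The largest rises in 2D were in large-subunit proteins and in small-subunit proteins shared with bacteria. MRPL17, a protein at the exit tunnel in bacteria, read 8.23, 8.06, 8.14 and 8.29 in 2D control and 9.01, 9.03, 9.0 and 8.85 in 2D HGF. All HGF arrays were higher, by 0.79 (SE 0.17, 1.73-fold, adjusted p = 0.000318). Fitted with the RNA-quality index as a covariate, the difference was 0.27 with an adjusted p of 0.0631. MRPL1 read 10.91, 10.77, 10.73 and 10.82 in control and 11.75, 11.49, 11.48 and 11.67 with HGF, a rise of 0.79 (SE 0.12, adjusted p = 1.96e-06). MRPS30 rose by 0.63, MRPS2 by 0.62, MRPS16 by 0.60 and MRPL39 by 0.58, each with no overlap between groups. MRPL37, MRPS35, MRPL15, MRPS31, MRPL35, MRPS18A, MRPL40, MRPS7, MRPL16, MRPL24 and MRPS21 rose by between 0.23 and 0.56.

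Members with the largest rises in 3D had smaller differences in 2D. MRPL12 rose by 0.39, MRPS10 by 0.39, MRPS22 by 0.37, MRPS12 by 0.35 and MRPS5 by 0.19. MRPL55 read 9.48, 9.47, 9.77 and 9.78 in 2D control and 9.67, 9.38, 9.80 and 9.46 in 2D HGF, and its groups overlapped. MRPL45 rose by 0.32 and MRPL41 by 0.38, the latter with overlapping groups and an adjusted p of 0.0457, which was lost without any 1 of 2D control replicates 2 and 4 or HGF replicates 1, 2 and 3. With the RNA-quality index as a covariate MRPL41 differed by 0.03 (adjusted p = 0.88) and MRPL11 by 0.13 (adjusted p = 0.274). MRPL11 rose by 0.20 with an adjusted p of 0.0345, lost without 2D control replicate 1 or 3 or HGF replicate 1.

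Among the 18 that fell, MRPL50, a protein of the mitochondrial large subunit alone, read 10.25, 10.05, 10.11 and 10.05 in 2D control and 9.56, 8.99, 9.35 and 9.30 in 2D HGF. Every HGF array was lower, by 0.82 on average (SE 0.16, 1.76-fold lower, adjusted p = 7.14e-05). MRPL36 read 13.63, 13.43, 13.40 and 13.56 in control and 12.79, 12.65, 12.79 and 12.72 with HGF, and fell by 0.77 (SE 0.09, adjusted p = 5.77e-08). MRPL36 thus fell with HGF in both cultures. MRPS14 fell by 0.59, MRPL18 by 0.58, MRPS36 by 0.54, MRPL10 and MRPL9 by 0.50 each, and MRPS33 by 0.48. With the covariate MRPS36 differed by -0.28 and did not pass (adjusted p = 0.0738). MRPS18C, MRPL34, MRPL43, MRPS26, MRPL23, MRPS9, MRPL28, MRPL2, MRPS28 and MRPL20 fell by between 0.18 and 0.47.

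Set side by side, 21 members rose with HGF in both cultures, 18 rose in 3D and did not pass in 2D, and 7 rose in 3D and fell in 2D. The 7 were MRPL18, MRPL20, MRPL28, MRPL34, MRPS18C, MRPS26 and MRPS28. Another 4 rose in 2D and did not pass in 3D: MRPL17, MRPL41, MRPL45 and MRPS35. MRPL2 and MRPL36 fell in both, 9 fell in 2D and did not pass in 3D, and MRPL33 fell in 3D and did not pass in 2D. The 9 that passed in neither were MRPL14, MRPL19, MRPL21, MRPL38, MRPL42, MRPL48, MRPL49, MRPS18B and MRPS27. No member rose in 2D and fell in 3D. Such joint counts were not taken over all probe sets, so they have no background here.

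The difference between the HGF effects of both cultures was tested itself. The HGF effect was higher, meaning more positive, in 3D for 37 of 71 members and lower for none. Over all probe sets it was higher for 22% and lower for 26.3%. At an unadjusted p under 0.05 the limma counts for the members were 42 and 1. A higher effect need not be a larger one: MRPL9 differed by 0.06 in 3D and -0.50 in 2D, and MRPS14 by -0.15 and -0.59. The median difference was 0.35, against -0.02 over all probe sets. The test passed for 14 of 22 small-subunit and 22 of 48 large-subunit members, and for MRPS36.

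MRPS10 had the largest difference between cultures, 1.81 (SE 0.23, adjusted p = 4.17e-07), from a rise of 2.20 in 3D and 0.39 in 2D. MRPL55 followed with 1.26 (SE 0.20, adjusted p = 1.07e-05) and MRPL34 with 1.25 (SE 0.21, adjusted p = 2.56e-05). MRPL34 combined a rise of 0.84 in 3D with a fall of 0.41 in 2D. MRPL50 differed by 1.06 (SE 0.22), from 0.24 in 3D, which did not pass, and a fall of 0.82 in 2D, and MRPS18C by 1.0 (SE 0.12), from a rise of 0.53 and a fall of 0.47. MRPS22, MRPS26, MRPS5, MRPS12, MRPL18 and MRPL12 differed by between 0.86 and 0.97. The members with similar rises in both cultures, such as MRPL1 at 0.80 and 0.79 and MRPS30 at 0.54 and 0.63, did not pass.

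**Figure D4:**
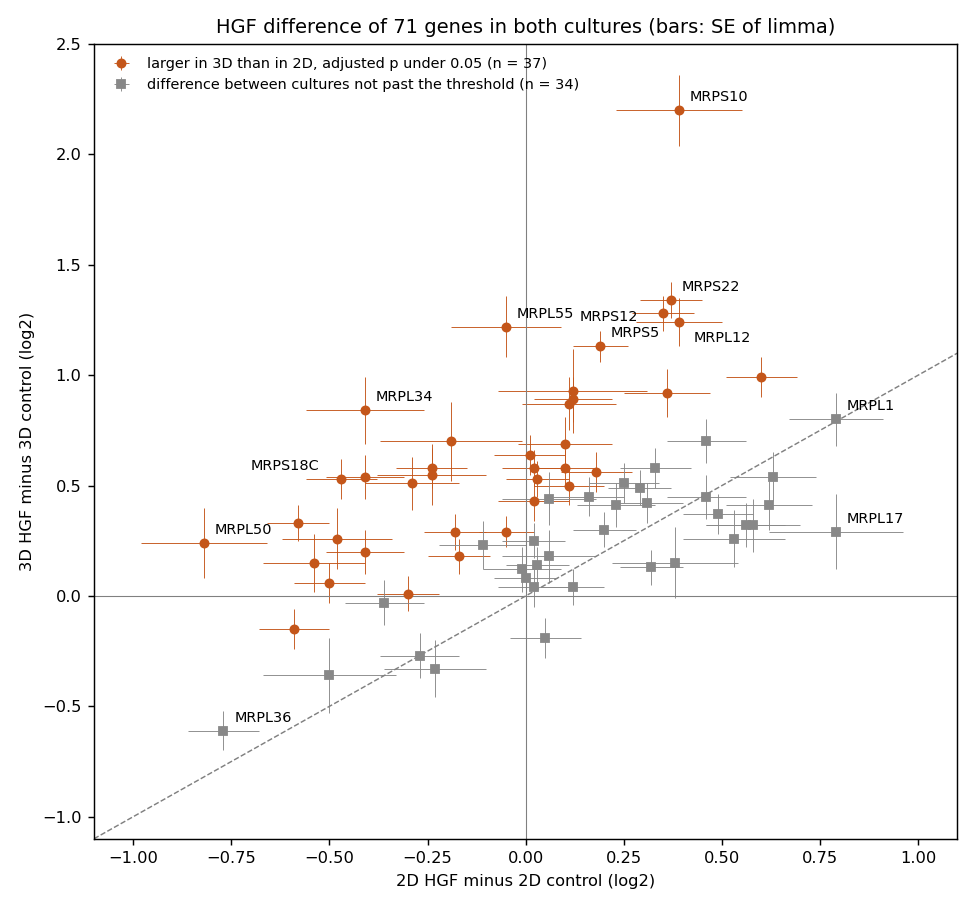
HGF minus control in 3D (vertical axis, log2) against HGF minus control in 2D (horizontal axis, log2) for the 71 genes, with standard errors; the dashed line marks equal differences. Circles are the 37 genes whose difference was higher (more positive) in 3D, all above the line, and MRPS10 lies highest at 2.20 in 3D and 0.39 in 2D.

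Untreated cells in collagen had lower levels of some members than untreated cells on transwells. Of 71, 21 were lower in 3D and 7 higher, or 29.6% and 9.86%, where over all probe sets 28.7% were lower and 23.6% higher. The share lower is near the background and the share higher is below it. When array medians were aligned the counts were 13 higher and 20 lower, and with quantile normalization 14 and 24, so the share of higher calls was 39.4% and 36.8% in place of 25%. The RNA-quality index was higher in 3D control, at 1.71 to 2.15, than in 2D control, at 1.30 to 1.53. With it as a covariate 9 members were higher and 28 lower, among them all 7 and 19 of the 21 above. With the mean over a gene's probe sets 7 were higher and 31 lower, among them 4 of the 7 and 20 of the 21. No background was taken for these 2 alternatives.

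MRPL50 was lowest in 3D relative to 2D: it read 9.21, 9.04, 9.35 and 8.79 in 3D control and 10.25, 10.05, 10.11 and 10.05 in 2D control. The difference of -1.02 (SE 0.16, adjusted p = 5.1e-06) was the 1 change of 2-fold or more in this comparison. MRPS18A was lower by 0.91 (SE 0.11), MRPL17 by 0.89 (SE 0.17), and MRPL45 and MRPS10 by 0.74 each, all without overlap. MRPS10 was thus lower in untreated collagen and higher in HGF-treated collagen than in the matching 2D arrays, where it read between 7.30 and 7.56 with HGF. With the mean over its probe sets MRPS10 was lower by 0.35 with an adjusted p of 0.0699. MRPL12 was lower by 0.28 with overlapping groups and an adjusted p of 0.0362, which was lost without 3D control replicate 2, 3 or 4 or 2D control replicate 3 or 4. The other 15 lower members were MRPS33, MRPL34, MRPL2, MRPL36, MRPS15, MRPL40, MRPS18C, MRPS14, MRPL4, MRPL43, MRPS22, MRPL57, MRPL11, MRPS9 and MRPS5.

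Members higher in untreated 3D were MRPL41 by 0.62 (SE 0.16, adjusted p = 0.00209), MRPS26 by 0.53, MRPL27 by 0.47, MRPS30 by 0.45, MRPL35 by 0.38, MRPS35 by 0.37 and MRPS23 by 0.22. MRPL41 has also been described as a protein that promotes apoptosis. It read 8.43, 8.29, 8.12 and 8.34 in 3D control and 7.91, 7.47, 7.79 and 7.51 in 2D control, with no overlap. MRPS30 has no settled direction, because its other probe sets differed by -0.33 and -0.50 and the mean over them by -0.13 (adjusted p = 0.117). The other probe set of MRPS35 differed by -0.35 and did not pass, so the sign for MRPS35 depends on the probe set as well. Apart from MRPS30, no member had probe sets called in opposite directions in any comparison. MRPS26 lost its call with the mean over its probe sets (0.33, adjusted p = 0.0816).

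The inhibitor comparisons ask how MEK inhibition changes HGF-treated cells, and each is taken against the HGF arrays of its culture. They share those arrays with the HGF comparisons, so values are given side by side and no relation between them is drawn. In 3D, U0126 lowered many members: 33 of 71 fell and 6 rose, or 46.5% and 8.45%, where over all probe sets 23.8% fell and 25.4% rose. The median was -0.24. In 25 of the 33, or 75.8%, the groups did not overlap, as in 76.5% of all probe sets that fell. Without 3D HGF replicates 1 and 4, 40 fell and 4 rose.

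MRPL12 fell most with U0126 in 3D: it read 11.01, 11.20, 11.14 and 10.82 with HGF alone and 10.14, 9.94 and 10.27 with U0126. The groups were well apart, and the fall of 0.92 (SE 0.12) was 1.90-fold, with an adjusted p of 4.26e-07. MRPL55 fell by 0.90, reading 10.03, 9.67 and 10.14 with U0126 against 10.53 or more with HGF alone. MRPL46 fell by 0.89, MRPS5 by 0.88, MRPS12 by 0.79, MRPS10 by 0.76 and MRPS22 by 0.75. All but MRPS10 had no overlap, since HGF replicate 1 of MRPS10 read 7.79 and U0126 arrays reached 7.81. MRPS18A, MRPS2 and MRPL16 fell by 0.66, 0.61 and 0.59. The other 23 that fell did so by between 0.22 and 0.57, among them MRPL3 by 0.50, MRPL1 by 0.53, MRPS30 by 0.54 and MRPL32 by 0.57.

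By role, 14 of 22 small-subunit members fell with U0126 in 3D and 1 rose, with a median of -0.37, and 19 of 48 large-subunit members fell and 5 rose, with a median of -0.18. The 6 that rose were MRPL10 by 0.70, MRPL36 by 0.70, MRPL2 by 0.53, MRPL14 by 0.52, MRPL33 by 0.47 and MRPS14 by 0.33. MRPL36 read 13.06, 12.83 and 13.17 with U0126 and 12.47, 12.34, 12.37 and 12.11 with HGF alone, with no overlap. Its level with U0126 was close to the untreated 3D arrays, which read between 12.90 and 13.01. MRPL10 lost its call when only the compared groups were fitted (adjusted p = 0.0755).

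PD-98059 in 3D changed fewer members: 9 rose and 9 fell, or 12.7% each way, where over all probe sets 26.6% rose and 15.4% fell. The median was -0.01. This split depended on the scaling, since aligning array medians, which shifted this comparison by 0.13, gave 5 higher and 27 lower, where over all probe sets 21% were then higher and 23.9% lower, and quantile normalization gave 10 and 16. The share of higher calls was therefore 50%, 15.6% or 38.5%. Without 3D PD-98059 replicate 2 the count of falls was 3, without 3D HGF replicate 3 it was 5, and without HGF replicate 4 the count of rises was 5.

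The largest rises with PD-98059 in 3D were in large-subunit proteins shared with bacteria. MRPL2, a protein near the catalytic centre, read 9.30, 9.60, 9.36 and 9.10 with HGF alone and 10.06, 10.06 and 10.17 with PD-98059. It rose by 0.76 (SE 0.11, adjusted p = 4.37e-06) without overlap. MRPL36 rose by 0.71 and MRPL14, at the face between the subunits, by 0.59. MRPS14 also rose by 0.59 and MRPL10 by 0.63, the latter with overlapping groups. MRPL48, MRPL43, MRPL42 and MRPL18 rose by between 0.25 and 0.34.

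MRPS18A fell by 0.49 (SE 0.12, adjusted p = 0.00139) and MRPS5 by 0.48 (SE 0.08, adjusted p = 1.98e-05), both without overlap. MRPS5 read 11.27, 11.20 and 11.21 with PD-98059, below every HGF array and above every 3D control array. MRPS10 fell by 0.52 with overlapping groups and MRPS22 by 0.28. MRPL12 fell by 0.30 with an adjusted p of 0.0455, which was lost on leaving out any 1 of 3D HGF replicates 1, 2 and 3 or of the 3 PD-98059 arrays. MRPL1, MRPL35, MRPL46 and MRPL58 fell by between 0.27 and 0.45, all with overlapping groups. MRPS12 read 11.02, 11.03 and 11.17 with PD-98059, within the range of the HGF arrays.

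In 2D both inhibitors moved the members in both directions. With PD-98059, 22 rose and 16 fell, or 31% and 22.5%, where over all probe sets 27.6% rose and 24.9% fell. With U0126, 20 rose and 20 fell, or 28.2% each way, against 25.8% and 24.3%. These shares are near the background, and the medians were 0.08 and 0.01. The RNA-quality index was 1.28 to 1.41 with PD-98059 and 1.23 to 1.47 with U0126, above the 2D HGF arrays, and with it as a covariate 16 of the 22 rises and 15 of the 16 falls with PD-98059, and 17 of the 20 rises and 18 of the 20 falls with U0126, kept their call.

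MRPL17 fell most with both inhibitors in 2D, from 9.01, 9.03, 9.0 and 8.85 with HGF alone to 7.88, 7.84, 7.98 and 8.13 with PD-98059 and 8.09, 8.16 and 7.90 with U0126. The falls were 1.01 (SE 0.17, adjusted p = 1.64e-05) and 0.92 (SE 0.19, adjusted p = 0.000164), with no overlap in either. MRPL1 fell by 0.71 and 0.72, MRPL35 by 0.56 and 0.44, and MRPS31 by 0.55 and 0.65 with PD-98059 and U0126. MRPS30, MRPS2 and MRPL37 fell with both too, by between 0.49 and 0.65.

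MRPL36 rose by 0.90 (SE 0.09, adjusted p = 4.34e-09) with PD-98059 and by 0.85 (SE 0.10, adjusted p = 4.58e-08) with U0126 in 2D. It read 13.55, 13.44, 13.65 and 13.89 with PD-98059 and 13.46, 13.61 and 13.70 with U0126, where untreated 2D arrays read 13.40 to 13.63. MRPL36 thus rose with both inhibitors in both cultures. MRPL50 rose by 0.91 and 0.69 and MRPS26 by 0.90 and 0.72. MRPS26, a small-subunit protein of mitochondria alone, read 9.45, 9.50, 9.69 and 9.44 with HGF alone, 10.41, 10.08, 10.59 and 10.60 with PD-98059 and 10.22, 10.23 and 10.28 with U0126. All inhibitor arrays lay above all HGF arrays. MRPS18C rose by 0.79 and 0.55 and MRPL18 by 0.65 and 0.53.

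PD-98059 is a flavone and U0126 is a dinitrile that belongs to another class, both act on MEK, and they were compared directly in each culture. Doses are not given, so the comparison is between these treatments as applied. In 3D, 18 of 71 members were lower with U0126 than with PD-98059 and none was higher, where over all probe sets 8.82% were lower and 2.99% higher, and with 1 probe set per gene 9.9% and 3.11%. With limma at an unadjusted p under 0.05 the counts were 33 and 1. The median difference was -0.23, against -0.06 over all probe sets, and 65 of 71 members had a negative sign.

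MRPL55 differed most, at -0.74 (SE 0.16, adjusted p = 0.00348): it read 10.70, 10.62 and 10.74 with PD-98059 and 10.03, 9.67 and 10.14 with U0126. MRPS12 differed by -0.68 (SE 0.09, adjusted p = 2.11e-05), from 11.02, 11.03 and 11.17 to 10.45, 10.29 and 10.44. MRPS11, a small-subunit protein with a bacterial counterpart, differed by -0.65 (SE 0.16, adjusted p = 0.00839), from 8.75, 9.03 and 8.95 to 8.13, 8.43 and 8.20. All 18 were without overlap between the 3 and 3 arrays, as were 97.9% of all probe sets called lower. A further 23 members lay lower without overlap but did not pass. Called or not, 41 members lay lower without overlap and 2 lay higher. Over all probe sets, called or not, 22.4% lay lower without overlap and 9.05% higher. The other members that passed were MRPL12, MRPL46, MRPS2, MRPS26, MRPL16, MRPS22, MRPL18, MRPL15, MRPS16, MRPS5, MRPL30, MRPS28, MRPL40, MRPL24 and MRPL20, at between -0.62 and -0.30. Array weights raised the count to 36.

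In 2D no member passed between the inhibitors, in either direction, where over all probe sets 0.778% were lower and 0.845% higher with U0126. At an unadjusted p under 0.05 limma gave 3 lower and 2 higher. The 95% intervals of all 71 differences lay between -0.56 and 0.59, so a 2-fold difference lay outside every one of them. In 3D the intervals ran from -1.08 to 0.58, and 70 of 71 lay within 2-fold. Between these 2 comparisons, a member that passed in 3D and not in 2D is not shown to differ between cultures by that alone.

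**Figure D5:**
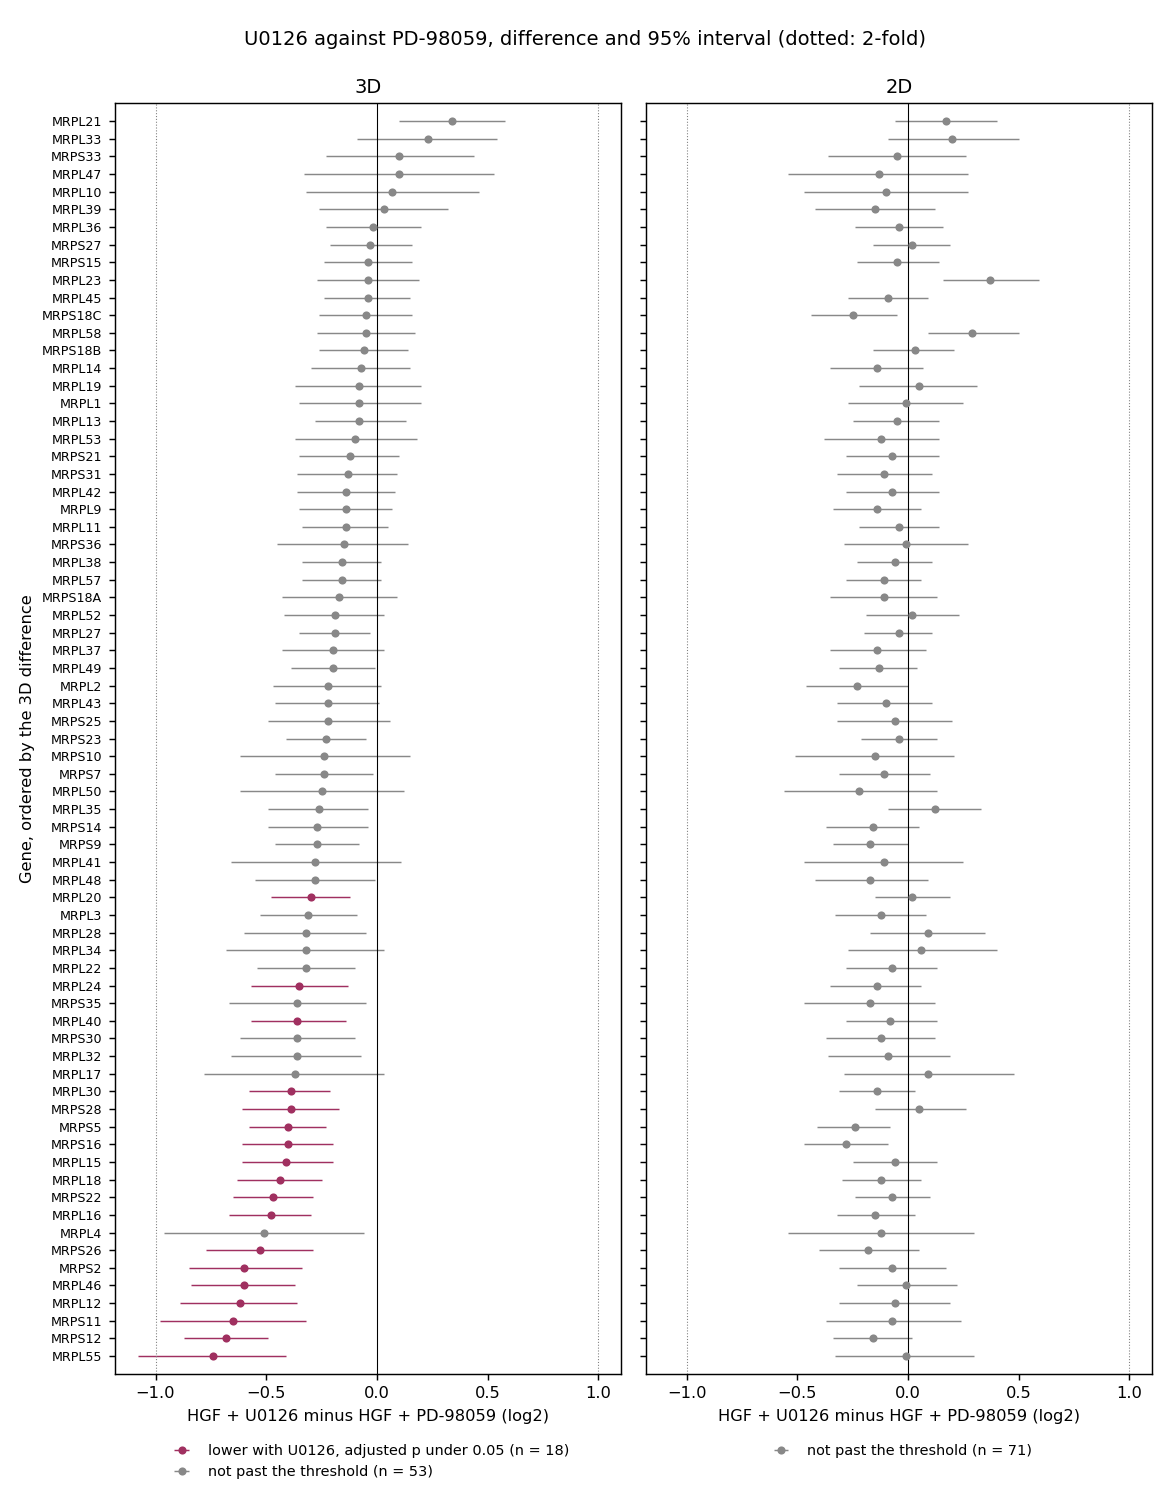
HGF with U0126 minus HGF with PD-98059 (horizontal axis, log2) for the 71 genes in 3D (left) and 2D (right), with 95% intervals; genes are ordered by the 3D difference and dotted lines mark 2-fold. In 3D, 18 genes were lower with U0126, from MRPL20 at -0.30 to MRPL55 at -0.74, and in 2D none passed.

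The difference between cultures in the effect of each inhibitor was tested as well. For U0126 the effect was lower in 3D than in 2D for 26 of 71 members and higher for 4, where over all probe sets 16.6% were lower and 19.9% higher. The largest was MRPS26 at -1.22 (SE 0.16, adjusted p = 9.14e-07), from a fall of 0.49 in 3D and a rise of 0.72 in 2D. MRPL55 differed by -1.05 and MRPS10 by -0.99. The 4 higher were MRPL17 at 0.78, MRPL14 at 0.65, MRPL39 at 0.57 and MRPL45 at 0.36. For MRPL17 the call was lost without 3D U0126 replicate 1 or 2D U0126 replicate 3, and with the RNA-quality index as a covariate MRPL17 differed by 0.31 and MRPL39 by 0.33, neither of which passed.

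For PD-98059, 12 members were lower and 6 higher in 3D than in 2D, where over all probe sets 12.3% were lower and 22% higher. Aligned array medians gave 21 and 4 and quantile normalization gave 23 and 5, so the share of higher calls was 33.3%, 16% or 17.9%. MRPL17 differed by 1.25 (SE 0.25, adjusted p = 0.000347), because it fell by 1.01 in 2D and read 7.83, 7.73 and 7.86 with PD-98059 in 3D, within the range of the 3D HGF arrays. MRPS10 differed by -0.90, MRPS26 by -0.86 and MRPS18C by -0.80. MRPL15 and MRPL14 differed by 0.55 and 0.59.

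The brightest probe sets were those of MRPL21, MRPL9, MRPL36, MRPL20 and MRPL3, and the dimmest were those of MRPS27, MRPS33, MRPL4, MRPS10 and MRPL10, which places no gene above another. MRPL21, with array values from 13.06 to 13.69, did not pass in either HGF comparison on the probe set used, and its other probe set rose by 0.46 with HGF in 3D and passed, with an HGF difference 0.40 larger in 3D than in 2D that passed too. MRPL9 differed by 0.06 in 3D and fell by 0.50 in 2D.

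Subunits of the mitochondrial ribosome that carry other names were taken as a separate list. Of 7 symbols listed, ICT1 and MRP63 are older names of the members MRPL58 and MRPL57. Of the 5 that were tested, 4 rose and none fell with HGF in 3D, where over all probe sets 29.4% rose and 32.6% fell. CHCHD1 rose by 0.90 (SE 0.12, adjusted p = 3.32e-07), from a mean of 10.24 to 11.14, and GADD45GIP1, which joins the large subunit near the exit tunnel, by 0.79 (SE 0.14, adjusted p = 2.41e-05). AURKAIP1 rose by 0.27 and DAP3, a GTP-binding protein of the small subunit, by 0.24. In 2D with HGF, DAP3 rose by 0.30 and no other passed, where over all probe sets 26.3% rose and 29.2% fell. The HGF effect was higher in 3D than in 2D for CHCHD1 at 0.95, GADD45GIP1 at 0.99 and AURKAIP1 at 0.35. Over all probe sets it was higher for 22% and lower for 26.3%. Untreated 3D cells had less CHCHD1, by 0.66, and more DAP3, by 0.41, than untreated 2D cells.

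Factors of mitochondrial translation gave 5 of 13 tested higher and none lower with HGF in 3D, and 3 higher and 4 lower in 2D. As shares these are 38.5% and 0% in 3D and 23.1% and 30.8% in 2D, beside 29.4% and 32.6%, and 26.3% and 29.2%, over all probe sets. TUFM, the elongation factor that brings tRNA to the ribosome, rose by 1.08 in 3D (SE 0.09, adjusted p = 1.35e-10). LRPPRC and SLIRP, partners that stabilise mitochondrial messenger RNA, rose by 1.02 and 0.70. In 2D, LRPPRC rose by 0.49, MTIF3 by 0.42 and MTFMT by 0.37. MTIF2, an initiation factor, fell by 0.94, GFM1 by 0.33 and MTRF1L by 0.30. The HGF effect was higher in 3D for 6 of the 13 and lower for none, led by TUFM at 0.97. Over all probe sets it was higher for 22% and lower for 26.3%. Between untreated cultures TUFM was lower in 3D by 0.74, OXA1L by 0.67 and MRRF by 0.54, and GFM2, MTIF2 and TSFM were higher by 0.44, 0.36 and 0.30.

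Factors for ribosome assembly, ribosomal RNA and mitochondrial transcription gave 7 of 16 tested higher and 2 lower with HGF in 3D, or 43.8% and 12.5% beside 29.4% and 32.6% over all probe sets. TFAM, which packages and transcribes the mitochondrial genome, rose by 1.59 (SE 0.36, adjusted p = 0.00046), NOA1 by 1.30 and TFB1M, a methyltransferase of the small ribosomal RNA, by 1.02. MTG1 and MALSU1, which act in assembly of the large subunit, fell by 1.12 and 0.51. In 2D, 2 rose and 5 fell, where over all probe sets 26.3% rose and 29.2% fell. TFB1M rose by 0.94 and RBFA by 0.71, and METTL17 fell by 0.94, FASTKD2 by 0.71 and MTG1 by 0.50. TFAM was lower in untreated 3D than 2D by 1.65, RPUSD4 by 0.72 and MTG1 by 0.61, and FASTKD2 and GRSF1 were higher by 0.61 and 0.26.

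The aminoacyl-tRNA synthetases of mitochondria charge tRNA for this ribosome, and their list also held QRSL1 and GATC, which are not synthetases. Of 10 tested, 2 were higher and 3 lower with HGF in 3D, which is near the background of 29.4% and 32.6%. FARS2 fell by 1.25, RARS2 by 1.22 and HARS2 by 0.86, and CARS2 and VARS2 rose by 0.72 and 0.34. In 2D, VARS2 alone rose, by 0.67, and RARS2 fell by 1.88 (SE 0.10, adjusted p = 1.77e-14), FARS2 by 1.0 and HARS2 by 0.52. They were among 5 of the list that fell, QRSL1 included, where over all probe sets 26.3% rose and 29.2% fell. In untreated 3D cells RARS2 was lower by 1.26, FARS2 by 0.96 and EARS2 by 0.63, and TARS2 was higher by 0.37.

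The proteins of the cytosolic ribosome and of the respiratory chain give a scale for these counts. With HGF in 3D, 7 of 55 cytosolic ribosomal protein genes rose and 5 fell, with a median of 0.01. Of 59 nuclear genes for oxidative phosphorylation subunits, 22 rose and 8 fell, with a median of 0.12, beside 0.42 for the members. Over all probe sets 29.4% rose and 32.6% fell in this comparison. The HGF effect was higher in 3D than in 2D for 10 of the 55 and 24 of the 59, beside 37 of the 71. Over all probe sets it was higher for 22%. In untreated cells 38 of the 55 cytosolic genes were lower in 3D, beside 21 of the 71 and 28.7% of all probe sets. No test between these sets was made.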

How the data were processed

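Per the labels, total RNA of 29 MDCK samples was biotin-labelled and hybridised to a canine expression array, 1 array a sample, in 8 groups. The authors deposited 1 table of log2 values for 43035 probe sets, of which 111 are controls. The submitters' processing notes name MAS5, Affymetrix Expression Console 1.1, GCRMA and Partek 6.6, with no role or order, and the model that made each value is not given in the sources used here. The values were used as deposited. Probe sets were named from the platform annotation, in which 29254 carry 1 gene symbol, 439 several and 13231 none, and probe sets naming several genes were left out, among them 1 for MRPS22. The gene IDs of 66 members have a symbol in RefSeq.

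Probe sets at log2 5 or more on at least 3 of 29 arrays were kept. limma 3.58.1 in R 4.3.3 fitted 8 group means over all arrays, with an intensity trend and 2-sided moderated tests, for 12 comparisons, and p-values were adjusted by Benjamini-Hochberg over 16571 probe sets. The fit was tested on simulated data. The number of arrays limits the precision. The labels do not say whether same-numbered arrays belong together, and the main fit did not pair them. Deviations of same-numbered arrays from their group means were correlated over all probe sets tested. The correlations ran from -0.296 to 0.409 over all comparisons of groups. In no comparison did every pair exceed 0.1, so pairing is not established, but it is not excluded either. Members, lists and tests were chosen with earlier results of these data known. Genes were described in full by size of change without overlap between groups (5 a direction for HGF and culture, 3 for inhibitors), by brightness, by range over groups, and from a fixed set of subunits; the other members are given by count and range. Alternatives were other filters, variance models, scalings, probe-set choices, a replicate block, an RNA-quality covariate, array weights and left-out arrays.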

Additional observations from a re-analysis of the deposited data

Results flagged for a closer look

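In groups of 4 arrays, 1 array stood far from the other 3 in 10 of 215 groups examined, over 42 genes and the array median, where chance alone gives about 1 in 20. In 3D control, replicate 3 of MRPL36 read 13.01 beside 12.90 to 12.91, and replicate 3 of MRPL15 read 11.55 beside 11.33 to 11.36. Replicate 4 of 3D control was low for MRPS30, at 11.66 beside 11.91 to 11.95, and for MRPS16, at 11.13 beside 11.27 to 11.28. Replicate 2 of 3D control was high for MRPL27, at 11.82 beside 11.56 to 11.60. In 3D HGF, replicate 1 of MRPL35 read 9.66 beside 10.01 to 10.08. In 2D HGF, replicate 4 of MRPL17 read 8.85 beside 9.0 to 9.03, and replicate 1 of MRPL11 read 9.83 beside 9.64 to 9.68. In 2D control, replicate 4 of MRPL35 read 8.70 beside 8.92 to 8.96, and replicate 3 of MRPL11 read 9.42 beside 9.52 to 9.53.

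Effects that differed between the cultures by limma's test of the difference itself are given next, with a positive sign where the effect was higher in 3D. For HGF these were MRPS10 at 1.81, MRPL55 at 1.26, MRPL34 at 1.25, MRPL50 at 1.06 and MRPS18C at 1.0. For PD-98059 the higher ones were MRPL17 at 1.25, MRPL14 at 0.59 and MRPL15 at 0.55, and the lower ones MRPS10 at -0.90, MRPS26 at -0.86 and MRPS18C at -0.80. For U0126 the higher ones were MRPL17 at 0.78, MRPL14 at 0.65 and MRPL39 at 0.57, and the lower ones MRPS26 at -1.22, MRPL55 at -1.05 and MRPS10 at -0.99. The HGF and inhibitor effects share the HGF arrays, so these values are not independent of each other.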

How the results depend on the processing

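Counts of members, higher and lower, that moved by more than 1.5 times are given next, and the cause was not tested. HGF in 3D had 1 lower in place of 3 with no filter on low values, with the compared groups alone, with aligned array medians, with array weights and without 3D HGF replicates 1 and 4. The HGF effect between cultures kept 0 lower except for 1 with the RNA-quality covariate, array weights, the mean of probe sets and without those replicates. 3D against 2D control had 14, 13 and 12 higher with quantile normalization, aligned medians and array weights. PD-98059 in 3D had 5 lower with no filter, 4 higher and 2 lower with the compared groups alone, 16 lower with quantile normalization, 5 higher and 27 lower with aligned medians, and 14 lower with array weights or without those replicates. U0126 in 3D had 3 higher with the compared groups alone. U0126 against PD-98059 in 3D had 1 higher with the RNA-quality covariate, and 1 higher and 36 lower with array weights. In 2D that comparison had 2 higher with quantile normalization or array weights, and 1 with aligned medians or the mean of probe sets. The PD-98059 effect between cultures had 3 higher and 7 lower with the compared groups alone, 23 lower with quantile normalization and 21 with aligned medians. The U0126 effect between cultures had 2 higher with no filter and 7 with the mean of probe sets. MRPS30 in 3D against 2D control reversed to -0.13 with the mean of probe sets.

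Leaving out 1 array at a time gave 45 to 52 higher and 1 to 3 lower for HGF in 3D, 20 to 24 and 13 to 17 in 2D, 6 to 8 and 19 to 23 for the controls, and 37 to 44 and 0 to 1 for the HGF effect between cultures. It gave 5 to 9 higher and 3 to 11 lower for PD-98059 in 3D, 5 to 7 and 27 to 36 for U0126, 20 to 25 and 14 to 20 for PD-98059 in 2D, and 17 to 20 and 14 to 21 for U0126. Between inhibitors it gave 0 to 1 higher and 12 to 21 lower in 3D, with the 1 higher without 3D U0126 replicate 3, and 0 to 1 each way in 2D. The PD-98059 effect between cultures had 4 to 9 higher and 9 to 17 lower, and the U0126 effect 3 to 5 and 22 to 30. With the replicate block the counts were 46 higher and 4 lower for HGF in 3D, 23 and 18 in 2D, 8 and 22 for the controls, 38 and 0 between cultures, 10 and 9 for PD-98059 in 3D and 6 and 31 for U0126 in 3D.

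Over 97 pairs of a named gene and a comparison, 1815 values under an alternative kept direction and side of the threshold, 41 lost the call, 24 gained it and 1 reversed. Groups of 3 or 4 arrays, unknown doses and an RNA-quality index that differs between groups limit these comparisons, and probe sets near background, such as that of MRPS27, can understate a change.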
